A study of Mus musculus with 27 samples.

Results

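The vehicle-injected mice of a transgenic series show what a microinjection does to the RNA of mouse cortex when the injected fluid holds no drug. Members were chosen from the sample labels alone, as every library labelled vehicle, and the injected and contralateral hemispheres were paired by the mouse letter of the title. This gave 8 of 27 libraries, from 4 of 14 mice, named J, L, M and AH as in the labels. The methods plan 6 mice per treatment. All genes of the deposited table were considered.

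The mice were female 5xFAD/C57BL6, 16 weeks old, which carry human familial Alzheimer's disease transgenes under the neuronal Thy1 promoter. Each received 500 nL of vehicle (saline with 20% sulfobutylether beta-cyclodextrin and 3% DMSO) in the lateral parietal association cortex of one hemisphere, and 24 h later a cortical block of about 1 mm3 was taken around the injection site and from the other hemisphere. The R33 and R55 mice used for comparison carried the same transgenes and received the same solution with a retromer-stabilizing compound added. No uninjected and no wild-type mouse is part of these libraries, so needle, volume, cyclodextrin and DMSO cannot be told apart, and the contralateral block comes from an operated animal.

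A needle track in cortex opens small vessels, kills cells along the path and exposes the surrounding glia to plasma. Astrocytes near such a wound become reactive: they raise the intermediate filament proteins GFAP and vimentin and secrete lipocalin 2, serpins and the protease inhibitor TIMP1, largely through cytokine receptors that activate the transcription factor STAT3. Microglia, vessel walls and damaged neurons add chemokines, adhesion molecules, complement and injury-induced transcription factors, and neutrophils and monocytes can enter from the blood. In 5xFAD cortex, amyloid plaques are already surrounded by reactive astrocytes and phagocytic microglia in both hemispheres. In a bulk block, more cells of a type and more RNA per cell cannot be told apart.

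Values are FPKM, fragments scaled to gene length and to the fragments counted in the library. The 8 libraries held 15932196 (mouse M, contralateral) to 38077026 (mouse L, contralateral) fragments on genes. Differences between hemispheres are given on the scale of log2(FPKM + 1), injected minus contralateral, which understates the change of low genes. Values of single libraries follow the order of mice J, L, M and AH. Differences were tested with limma, a linear model with moderated variance, with the mouse as a block, over the 12976 genes whose mean across the 27 libraries was 1 FPKM or higher.

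The blocks were cortical, with summed FPKM of 19 excitatory neuron genes between 5608 and 8521, but several also held tissue from beside or below cortex. Choroid plexus markers (Ttr, Kl, Folr1, Kcnj13, Aqp1 and Prlr) summed to 1137 FPKM in the contralateral block of mouse J and 151 FPKM in the injected block of mouse L, against 6.61 to 22.1 FPKM in the other 6 libraries. Striatal markers (Ppp1r1b, Drd1, Drd2, Adora2a and Rgs9) reached 149.6 FPKM in the injected block of mouse L and lay between 38.6 and 53.96 FPKM elsewhere. Thalamic markers (Tcf7l2, Prkcd and Lef1) reached 48.2 FPKM in the injected block of mouse J and lay between 5.695 and 9.84 FPKM elsewhere. The hemispheres of mice J and L therefore differ in neighbouring tissue. Dentate gyrus markers (Prox1, Dsp, C1ql2 and Lct) were higher on the injected side in all 4 mice, most in mouse M (41.1 against 14.95 FPKM). The 20 oligodendrocyte genes summed to 2535 against 879 FPKM in mouse L and to 2001 against 3194 FPKM in mouse M, injected against contralateral, so these pairs differ in oligodendrocyte RNA in opposite directions. No marker of these regions was at 0 in any of the 8 libraries. The part of tissue composition in the differences below was not tested, and for some values that rest on 1 mouse the value without it is also given.

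**Figure D1:**
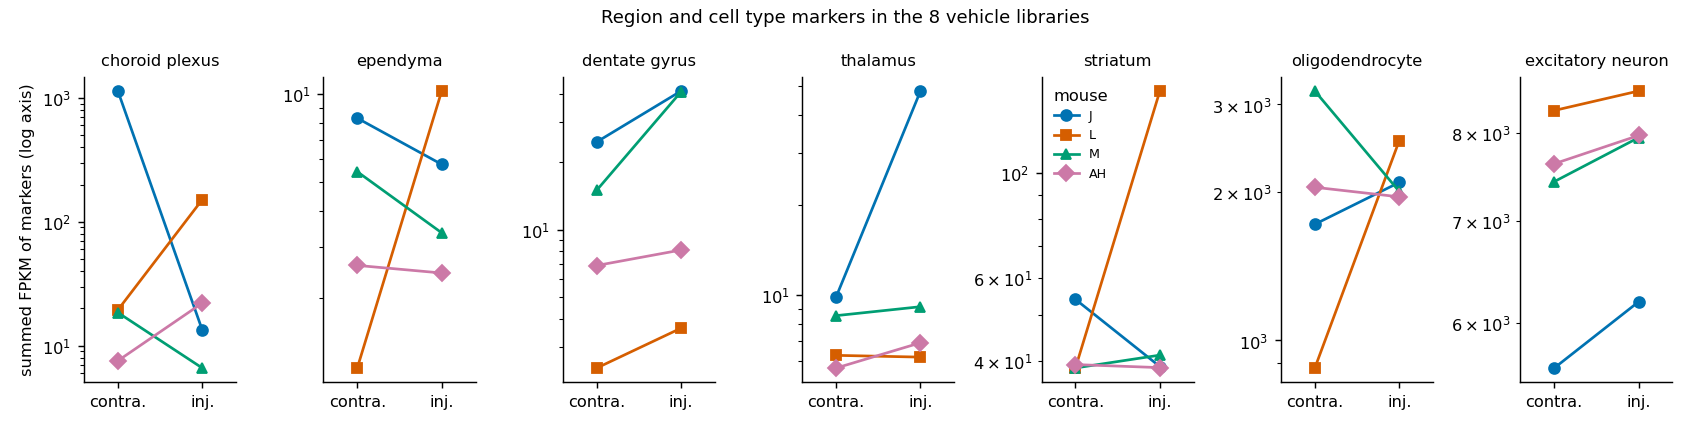
Summed FPKM (log axes, 1 panel for each marker list) in the contralateral and the injected block, with 1 line for each of the 4 vehicle mice. Choroid plexus markers peak in the contralateral block of mouse J (1137 FPKM), striatal markers in the injected block of mouse L (149.6 FPKM) and thalamic markers in the injected block of mouse J (48.2 FPKM).

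No gene differed between the injected and the contralateral hemisphere after adjustment over all tested genes (limma, Benjamini-Hochberg, adjusted p under 0.05), with 0 of 12976 genes called (0%) and a smallest adjusted p of 0.998. At an unadjusted p under 0.05 there were 535 genes (4.12%), 349 higher (2.69%) and 186 lower (1.43%) in the injected hemisphere. A test in which nothing differed would place about 5% of genes under that threshold, so the number of such genes is not in itself a sign of change. With the spread estimated over all 13 mice that have both hemispheres, 0 genes were called (smallest adjusted p = 0.666, limma) and 328 had an unadjusted p under 0.05, 194 higher (1.5%) and 134 lower (1.03%). After median-of-ratios scaling, the split of the unadjusted genes was 264 higher and 258 lower, and after a length correction it was 300 higher and 249 lower, so the excess of higher genes depends on the scaling. The median difference of all tested genes was 0.015, 57.7% of them had a difference above 0, and 7.67% of genes were higher and 4.28% lower in all 4 mice. Below, p under 0.05 means an unadjusted, two-sided p of the paired limma fit unless another fit is named, and every gene named from that fit had an adjusted p of 0.998 or more. An exact sign-flip test of 4 pairs cannot go below 0.125. Differences are given ± the SE of the paired fit over 4 pairs, or of another fit where named. This SE is moderated with the spread of other genes. For a gene whose mice disagree it can be smaller than the SE of the 4 pairs alone.

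The 10 genes with the largest upward difference among those with p under 0.05 and the same direction in all 4 mice were Ccl12, Scarna10, Lcn2, Kcnab3, Hmox1, Vamp1, Rspo1, Wnt10a, Gfap and Ifi30. Ccl12, a chemokine that attracts monocytes, measured 19.6, 1.899, 6.11 and 6.88 FPKM in the injected and 3.23, 1.76, 3.28 and 3.503 FPKM in the contralateral hemisphere of mice J, L, M and AH. Mouse J stood far above the others after injection and mouse L hardly differed, giving a difference of 0.97 ± 0.32, and of 0.54 without mouse J. Hmox1, the haem oxygenase that breaks down haem from lysed red cells, measured 9.15, 5.23, 6.02 and 10.4 FPKM in the injected and 4.25, 3.68, 4.82 and 4.58 FPKM in the contralateral hemisphere, a difference of 0.67 ± 0.14. Every injected block exceeded every contralateral block for Hmox1. Ifi30, a lysosomal thiol reductase of antigen-presenting cells, measured 7.37, 4.64, 6.68 and 7.84 FPKM in the injected and 4.14, 3.59, 3.84 and 5.57 FPKM in the contralateral hemisphere. It was higher in all 4 mice, by 0.52 ± 0.088 in the mean, although the ranges of the hemispheres overlapped.

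For Kcnab3, Vamp1 and Rspo1 most of the difference lay in mice J and L. Kcnab3, a subunit of voltage-gated potassium channels, measured 28.9, 42.3, 30.5 and 31.02 FPKM in the injected and 9.41, 18.5, 28.2 and 28.8 FPKM in the contralateral hemisphere, with a difference of 0.72 ± 0.25. Vamp1, a synaptic vesicle protein of fast-firing neurons, measured 76.4, 69.9, 56.5 and 66.4 FPKM in the injected and 29.9, 37.4, 49.7 and 59.2 FPKM in the contralateral hemisphere (0.64 ± 0.20). Without mice J and L the differences were 0.11 for Kcnab3, 0.17 for Vamp1 and 0.13 for Rspo1, a secreted enhancer of Wnt signalling. The Wnt ligand Wnt10a held up better, at 5.102, 8.03, 5.33 and 9.19 FPKM in the injected and 1.96, 6.28, 3.36 and 7.47 FPKM in the contralateral hemisphere, with a difference of 0.54 ± 0.13 and of 0.40 without J and L. Scarna10, a small nuclear RNA of Cajal bodies, rested on 3, 2, 4 and 4 fragments in the injected and 1, 0, 0 and 3 fragments in the contralateral libraries, too few to carry a statement about the gene.

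Reactive astrocyte genes were the list with the most members at p under 0.05. Of 26 listed genes 19 were tested, 18 were higher, and 12 of 19 had p under 0.05 in that direction, against 2.69% of all tested genes. The list was written with earlier results of these data known, so this share is a description. Emp1, Tgm1 and Sphk1 are among the 19 only through R33 and R55 libraries, as given below. The median difference was 0.33, and by mouse it was 0.25, 0.15, 0.26 and 0.24 in J, L, M and AH. Without a filter the median over all 26 genes was 0.24. No member was called over all genes. Leaving out 1 mouse at a time left 7 (without AH) to 11 (without L) members with p under 0.05. Without both J and L the count was 10, where 629 of 12976 tested genes were higher at that level. With the spread shared over 13 mice the median was 0.33 and 2 of 19, Emp1 and Stat3, had p under 0.05, so the number of members under the threshold depends on where the spread is taken from.

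Among the intermediate filaments, Gfap (GRCm39, chromosome 11 from 102778159 to 102791738) measured 306, 164, 345 and 263 FPKM in the injected and 304, 74.7, 219 and 209.8 FPKM in the contralateral hemisphere of mice J, L, M and AH. Gfap was similar on both sides in mouse J and higher on the injected side in the other 3 mice, with a difference of 0.53 ± 0.17, and of 0.33 without mouse L. In mouse L, where the ratio was largest, myelin and striatal markers were also higher on the injected side, and their part in it was not tested. Vim, which encodes vimentin, measured 38.3, 28.6, 42.9 and 32.2 FPKM in the injected and 33.7, 18.5, 37.7 and 24.1 FPKM in the contralateral hemisphere, higher in all 4 mice (0.34 ± 0.086). Nes, the filament nestin, differed by 0.057 ± 0.088.

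Genes of secreted proteins included the list's smallest unadjusted p, that of Serpina3n. Serpina3n, an acute-phase inhibitor of serine proteases, measured 38.6, 18.98, 47.7 and 31.7 FPKM in the injected and 28.8, 13.8, 40.04 and 21.5 FPKM in the contralateral hemisphere. It was higher in all 4 mice, with a difference of 0.41 ± 0.067. Lcn2, the iron-carrier-binding lipocalin released by reactive astrocytes, measured 8.21, 0.8203, 2.94 and 5.296 FPKM in the injected and 1.72, 0.677, 1.99 and 2.299 FPKM in the contralateral hemisphere. Mouse J had the highest and mouse L the lowest value on the injected side, where mouse L stayed below every contralateral value of the others, and the difference was 0.80 ± 0.25, or 0.48 without mouse J. Timp1, an inhibitor of metalloproteinases, measured 4.57, 0.357, 3.41 and 1.96 FPKM in the injected and 0.804, 0.708, 0.494 and 1.36 FPKM in the contralateral hemisphere, higher in 3 mice and lower in mouse L (0.80 ± 0.33, and 0.52 without mouse J).

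Other members of the list included signalling and surface genes. Stat3 measured 19.2, 15.2, 18.2 and 17.3 FPKM in the injected and 13.2, 14.5, 15.01 and 15.05 FPKM in the contralateral hemisphere (0.26 ± 0.082), and all 4 injected blocks lay above all 4 contralateral blocks. Socs3, the feedback inhibitor that STAT3 induces, measured 3.97, 1.32, 2.37 and 1.66 FPKM in the injected and 1.59, 1.09, 2.05 and 1.41 FPKM in the contralateral hemisphere (0.34 ± 0.15), with most of the difference in mouse J and 0.15 without it. Emp1, a small membrane protein, was at 1.92, 0.595, 1.14 and 0.898 FPKM in the injected and 0.6797, 0.397, 0.783 and 0.603 FPKM in the contralateral hemisphere (0.37 ± 0.12). Aspg, S1pr3, Hspb1 and Tm4sf1 differed by 0.38 ± 0.11, 0.20 ± 0.068, 0.33 ± 0.080 and 0.27 ± 0.11. Tgm1, a transglutaminase, was low, at 0.441, 0.0529, 0.433 and 1.15 FPKM in the injected and 0.175, 0.00874, 0.104 and 0.0833 FPKM in the contralateral hemisphere (0.43 ± 0.16, and 0.24 without mouse AH). Emp1, Tgm1 and the kinase gene Sphk1 averaged under 1 FPKM in the vehicle libraries and passed the filter through higher values in some R33 and R55 libraries. Emp1 and Tgm1 are counted in the 12, and Emp1 in the 2 of the shared spread. The one member lower on the injected side was S100a10 (-0.12 ± 0.16).

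**Figure D2:**
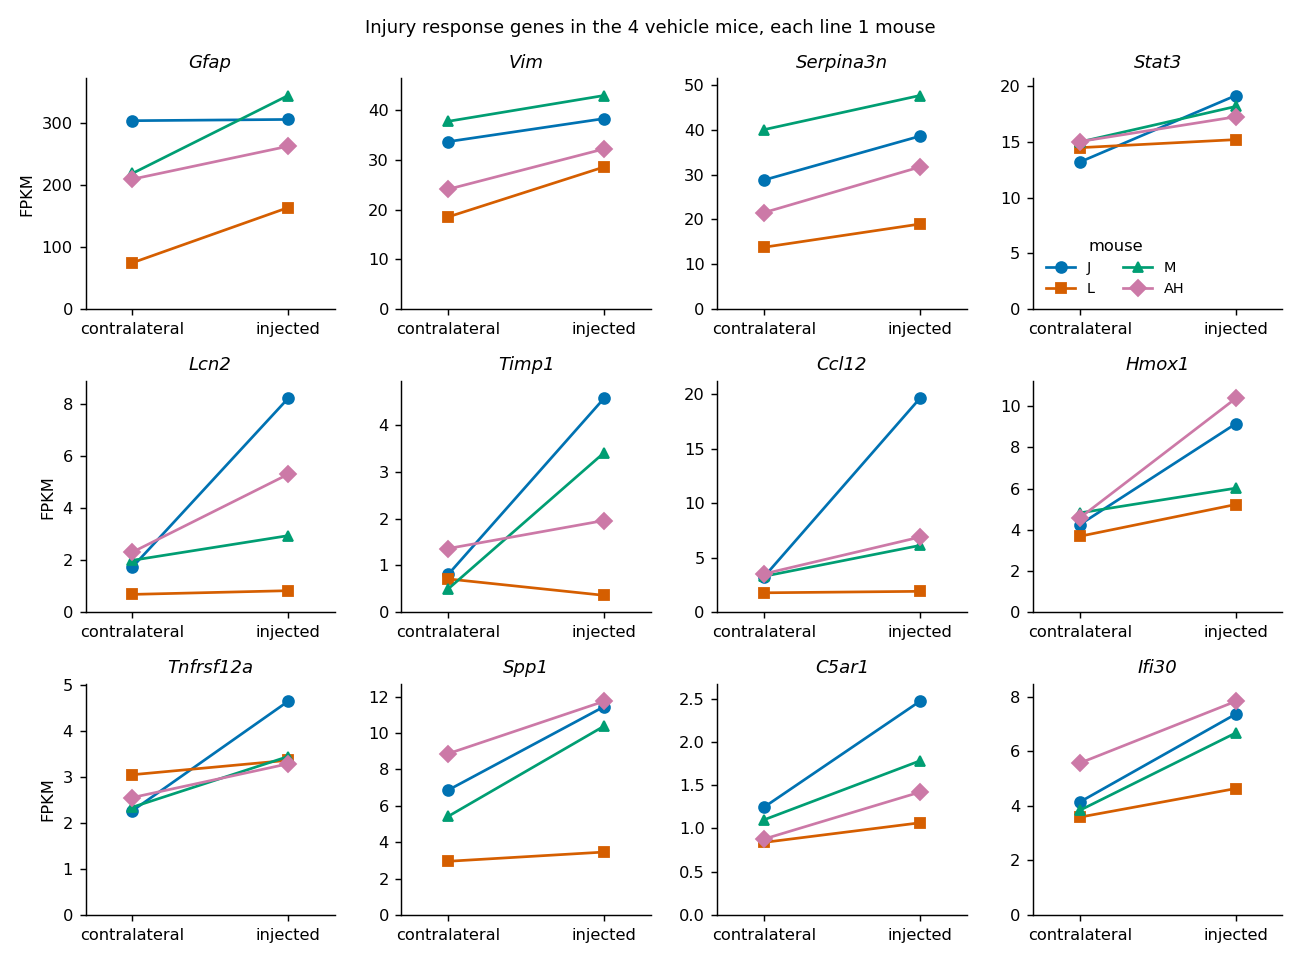
FPKM of 12 injury response genes (1 panel each, axes from 0) in the contralateral and the injected block, with 1 line for each of the 4 vehicle mice. Serpina3n, Vim, Hmox1 and Ifi30 are higher on the injected side in all 4 mice, while for Ccl12 and Lcn2 the steepest line is mouse J and mouse L is nearly flat.

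The 12 reactive astrocyte genes with p under 0.05 were looked up among RefSeq promoters (GRCm38.p6), 12 of 12 with at least 1 of 14 start sites, to show what sequence lies before genes that were higher together. The 250 bases before each start were searched on both strands for the STAT motif TTCNNNGAA, the AP-1 motif TGANTCA and the NF-kB motif. The STAT motif was in 2 of the 14 windows, those of Emp1 and Tgm1, against 7.02% of 32851 promoters of the same length. Both genes passed the filter only through R33 and R55 libraries, as given above, so the STAT count rests wholly on such members. The AP-1 motif was in 1 window (6.75% of all promoters) and the NF-kB motif in 2, those of Vim and Tm4sf1 (7.25%). A second form of the NF-kB motif, which fixes a run of T but leaves other positions free, so that the forms overlap in part, was in those of Vim and Serpina3n (1.41% of all promoters). The windows of Gfap, Lcn2, Timp1, Stat3, S1pr3, Aspg and Hspb1 held none of these motifs, which says nothing about sites elsewhere. A match is a description of the letters, not of binding. Both windows with the STAT motif are shown, since reactive astrocytes signal through STAT3. They run 5′ to 3′ on the gene's strand and end at the base before the start, with matches in capitals. Emp1 (chr6:135362681-135362930, plus strand, the first of its start sites) holds 2 STAT and 2 AP-1 matches, of which TGATTCA and TTCATAGAA overlap. Tgm1 (chr14:55713493-55713742, minus strand, the first of its start sites) holds 2 STAT matches.
Emp1: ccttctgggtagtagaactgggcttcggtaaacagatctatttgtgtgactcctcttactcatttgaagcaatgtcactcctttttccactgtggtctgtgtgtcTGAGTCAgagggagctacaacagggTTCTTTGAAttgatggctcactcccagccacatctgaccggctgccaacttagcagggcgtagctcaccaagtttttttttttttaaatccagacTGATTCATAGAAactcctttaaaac
Tgm1: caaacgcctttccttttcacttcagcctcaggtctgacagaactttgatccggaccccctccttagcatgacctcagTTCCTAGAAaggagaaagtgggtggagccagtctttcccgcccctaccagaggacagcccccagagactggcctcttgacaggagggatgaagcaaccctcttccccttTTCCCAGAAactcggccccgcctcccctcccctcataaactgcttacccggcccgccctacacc

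Genes of astrocyte identity gave a smaller median. Of 17 such genes 13 were higher, where 57.7% of all tested genes were. The list's median of 0.073 ran from -0.30 in mouse J to 0.41 in mouse L and was -0.039 without mouse L. Those with p under 0.05 were the water channel gene Aqp4 (0.25 ± 0.082) and the folate enzyme gene Aldh1l1 (0.24 ± 0.067), both higher in all 4 mice. The glutamate transporter genes Slc1a2 and Slc1a3 differed by -0.065 ± 0.10 and -0.039 ± 0.14.

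Cytokine, chemokine and adhesion genes were higher in 19 of 25 tested members, where 57.7% of all tested genes were, and 5 of them had p under 0.05 (background 2.69%) with a median of 0.12. None was lower at that level over 4 mice, but without mouse AH 3 were higher and 2 lower. Besides Ccl12, they encode cytokine receptors, an adhesion molecule and an interferon-inducible chemokine. Tnfrsf1a, the main receptor for tumour necrosis factor, measured 14.02, 7.73, 11.1 and 12.8 FPKM in the injected and 10.6, 6.75, 8.796 and 10.03 FPKM in the contralateral hemisphere, higher in 4 of 4 mice (0.29 ± 0.062). Il1r1, the interleukin-1 receptor, differed by 0.33 ± 0.11, the adhesion molecule gene Icam1 by 0.22 ± 0.086, and the interferon-inducible chemokine gene Cxcl10 by 0.29 ± 0.10. Ccl2, the monocyte chemoattractant, was at 3.602 FPKM in the injected block of mouse J and between 0.163 and 0.389 FPKM in the other 7 libraries (0.47 ± 0.30, and 0.050 without mouse J). Il1b, Il6 and Tnf were below the filter, and Il6 did not exceed 0.112 FPKM in any library. Ccl3 and Ccl4, chemokines of plaque-associated microglia, differed by -0.18 ± 0.15 and 0.0014 ± 0.079.

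Complement genes were higher in 11 of 12 tested members, with a median of 0.14 and 3 members with p under 0.05, against backgrounds of 57.7% and 2.69%. The 3 became 1 without mouse M and 0 with the shared spread. C5ar1, the receptor for the chemotactic fragment C5a, measured 2.47, 1.06, 1.78 and 1.42 FPKM in the injected and 1.25, 0.838, 1.099 and 0.877 FPKM in the contralateral hemisphere, higher in all 4 mice (0.39 ± 0.098). Serping1, the inhibitor of the C1 complex, was at 6.17, 1.64, 5.13 and 4.202 FPKM in the injected and 4.05, 1.83, 2.41 and 3.19 FPKM in the contralateral hemisphere, higher in 3 mice with mouse L the exception (0.39 ± 0.15). C4b, a component that reactive astrocytes make, was at 14.3, 9.71, 17.4 and 12.9 FPKM in the injected and 15.2, 5.68, 13.7 and 9.95 FPKM in the contralateral hemisphere, higher in 3 mice with mouse J the exception (0.31 ± 0.12). C1qa, made by microglia, differed by 0.12 ± 0.092, and C3 was below the filter at 0.206 to 0.454 FPKM.

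Microglial genes went in different directions in different mice. Of 15 resting microglia genes 6 were higher and 9 lower, none with p under 0.05, and the median by mouse was -0.30, -0.0035, -0.046 and 0.26 in J, L, M and AH. P2ry12, a receptor of ramified microglia, differed by -0.25 ± 0.15, and Tmem119 by -0.0047 ± 0.096. Of 27 genes of phagocytic, plaque-associated microglia 15 were higher, 4 with p under 0.05, with medians by mouse of -0.13, 0.032, -0.031 and 0.28. The share of higher genes was near the background of 57.7%, and without mouse AH the median was -0.017 with 1 gene higher and 2 lower at p under 0.05. Those 4 were the secreted phosphoprotein gene Spp1, the cathepsin gene Ctsb, the galectin gene Lgals3 and Ch25h, which makes an oxysterol. Spp1 measured 11.4, 3.45, 10.4 and 11.7 FPKM in the injected and 6.86, 2.95, 5.41 and 8.86 FPKM in the contralateral hemisphere (0.51 ± 0.11), with mouse L low on both sides. The receptor gene Trem2 and the cystatin gene Cst7 differed by -0.068 ± 0.12 and -0.039 ± 0.14, and in mouse AH both were higher on the injected side, unlike in the other 3 (73.9 against 51.5 FPKM for Cst7).

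Interferon-stimulated genes were even, with 12 higher and 12 lower of 24, none with p under 0.05 and a median of 0.0010. By mouse the median was 0.032, -0.25, -0.030 and 0.28 in J, L, M and AH, so mouse AH was up and mouse L down. Leaving out mouse AH gave a median of -0.098 with 4 genes lower at p under 0.05, and leaving out J and L gave 0.12 with 4 higher. Of all 12976 tested genes 169 were lower at that level without AH, and 629 were higher without J and L. Ifit3 and Isg15, effectors of the antiviral response, differed by -0.020 ± 0.10 and -0.16 ± 0.15.

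Most markers of blood-derived leukocytes were below the filter. Of 33 neutrophil, monocyte and macrophage genes 9 passed the filter, and of these 7 were higher and 2 lower with none at p under 0.05. The summed level ran from 51.9 to 78.4 FPKM in the injected and from 53.8 to 74.4 FPKM in the contralateral libraries, most of it from Lyz2 and Cd74, which microglia also make, and between 2 and 9 of the 33 genes were listed at 0 in a library. S100a9, abundant in neutrophils, measured 4.04, 0.971, 1.75 and 2.65 FPKM in the injected and 1.58, 1.403, 2.87 and 1.83 FPKM in the contralateral hemisphere (0.14 ± 0.23). Camp was listed at 0 in all 4 injected libraries and Elane in 7 of the 8 libraries. Mouse J held the highest injected values of Ccr2, the receptor of inflammatory monocytes (0.554 against at most 0.105 FPKM in the other 7 libraries), and of Chil3 (0.636 against at most 0.136 FPKM). Of 13 T and B cell genes 10 were in the table and none passed the filter, with Cd3e at 0.0218 to 0.172 FPKM where it was above 0. Cd4 reached 3.15 FPKM in the injected block of mouse L. Haemoglobin genes (Hba-a1, Hba-a2, Hbb-bs and Hbb-bt) were listed at 0 in every library. Whether this reflects the tissue or the counting of fragments was not tested, so it is no measure of blood in the block. The 7 red blood cell genes summed to 1.11 to 2.58 FPKM, nearly all of it from the haem synthesis gene Alas2 (-0.040 ± 0.13).

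Neuronal injury genes gave a mixed picture. Of 14 tested genes 6 were higher and 8 lower (median -0.020), where 57.7% of all tested genes were higher. At p under 0.05 there were 3, all higher (background 2.69%). The median by mouse was above 0 in each, at 0.051, 0.044, 0.16 and 0.034 in J, L, M and AH, and the list's median was 0.062 without J, 0.071 without L and 0.14 without both. The 3 genes were Hmox1, Tnfrsf12a and Gadd45b. Tnfrsf12a, the TWEAK receptor induced in damaged cells of several types, measured 4.64, 3.36, 3.44 and 3.29 FPKM in the injected and 2.26, 3.05, 2.34 and 2.55 FPKM in the contralateral hemisphere, higher in all 4 mice with most of it in J (0.40 ± 0.12, and 0.26 without J). Gadd45b, a stress sensor, was at 8.33, 9.898, 8.56 and 9.36 FPKM in the injected and 6.54, 9.63, 7.73 and 7.58 FPKM in the contralateral hemisphere (0.19 ± 0.070). Among the axon injury genes, Atf3 differed by -0.058 ± 0.11, Gap43 by -0.31 ± 0.14 (0.014 without J and L), and Sprr1a was below the filter at 0.1998 FPKM or less.

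Activity-induced genes were more often lower, by an amount that depended on mouse L. Of 25 immediate early genes 16 were lower on the injected side, where 5491 of 12976 tested genes were. Of the 16, 4 had p under 0.05 (background 1.43%), and no gene of the list was higher at that level. Egr2, a transcription factor induced by neuronal firing, measured 0.405, 1.104, 0.913 and 2.03 FPKM in the injected and 0.845, 2.17, 1.2996 and 3.03 FPKM in the contralateral hemisphere, lower in all 4 mice (-0.41 ± 0.087). It stayed under an unadjusted p of 0.05 with the spread of 13 mice. Npas4, which couples activity to inhibitory synapses, was at 2.99, 5.08, 5.44 and 1.83 FPKM in the injected and 2.802, 11.2, 8.06 and 2.29 FPKM in the contralateral hemisphere, lower in L, M and AH (-0.41 ± 0.17, and -0.21 without mouse L). Egr4 and Nr4a3 differed by -0.27 ± 0.11 and -0.27 ± 0.10. Fos, Arc and Egr1 were lower in 3 of 4 mice, with differences of -0.20 ± 0.23, -0.091 ± 0.12 and -0.059 ± 0.18. The median of the list was -0.059 and by mouse 0.21, -0.35, -0.054 and -0.081, so mouse J, whose contralateral block held choroid plexus, was opposite to the others. Without mouse L the median was 0.022, with 2 genes lower and 1 higher at p under 0.05, and without mouse J it was -0.17 with 5 lower.

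**Figure D3:**
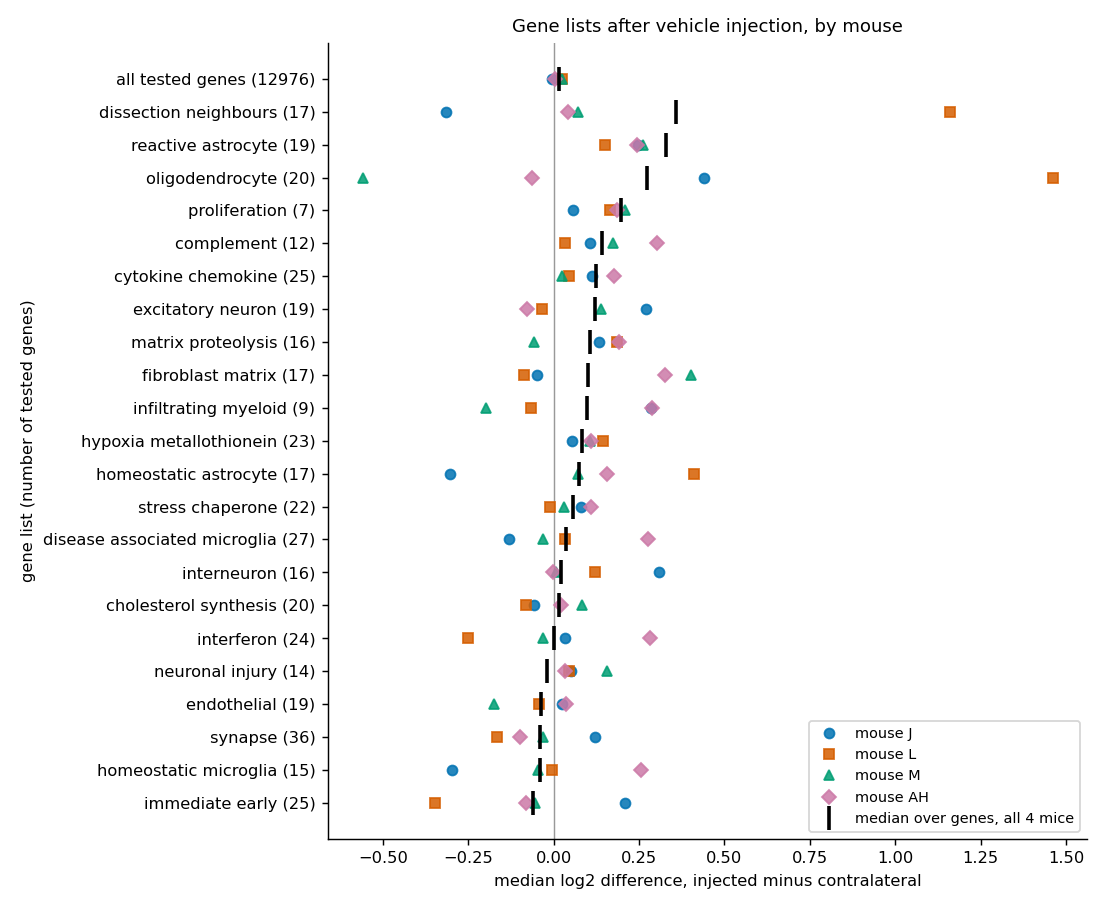
Median log2 difference (injected minus contralateral) of each gene list, with 1 symbol for each of the 4 vehicle mice and a black bar for the median of the fitted differences, lists ordered by that bar and all tested genes at the top. Reactive astrocyte genes are above 0 in all 4 mice (0.15 to 0.26), whereas oligodendrocyte genes run from -0.56 in mouse M to 1.46 in mouse L.

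Stress and metabolic genes were mostly higher on the injected side, by small amounts. Of 23 genes of hypoxia, metal binding and oxidative stress 20 were higher, 4 with p under 0.05 and a median of 0.084. The shares over all tested genes were 57.7% higher and 2.69% higher at p under 0.05. Hmox1 is one of the 4, and the count was 2 after median-of-ratios scaling. The metallothionein gene Mt2 measured 201, 139, 155 and 189 FPKM in the injected and 189.7, 88.9, 141 and 156 FPKM in the contralateral hemisphere (0.28 ± 0.10), with Mt1 at 0.23 ± 0.10. The antioxidant enzyme gene Srxn1 and the mitophagy gene Bnip3 differed by 0.18 ± 0.067 and 0.14 ± 0.056. Of 22 heat shock and unfolded protein genes 18 were higher (median 0.057), with Atf4 (0.17 ± 0.069) and Ddit3 (0.21 ± 0.076), transcription factors of the integrated stress response, and Hspb1 at p under 0.05. These 3 became 2 after that scaling and 1 after the length correction. Hspa1a and Hspa5, the inducible and the endoplasmic reticulum chaperone, differed by 0.081 ± 0.081 and 0.021 ± 0.064.

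Cell cycle genes included subunits of the replicative DNA helicase. Among all tested genes 57.7% were higher, and 2.69% were higher at p under 0.05. Of 22 cell cycle genes 7 passed the filter, 6 were higher and 3 had p under 0.05, which fell to 1 without L, without M or without AH and to 0 with the shared spread. The median was 0.20 over the 7 and 0.063 over all 22 without a filter. Mcm2 measured 2.32, 2.18, 2.04 and 2.55 FPKM in the injected and 1.47, 1.72, 1.66 and 1.98 FPKM in the contralateral hemisphere (0.27 ± 0.078). Mcm3 and Mcm6, other subunits of this helicase, differed by 0.21 ± 0.079 and 0.19 ± 0.070, each higher in all 4 mice. Top2a and Mki67, which mark dividing cells, were below the filter at no more than 0.591 and 0.287 FPKM.

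Extracellular proteolysis genes were higher in 14 of 16 tested members (median 0.11), with Timp1 and Spp1 at p under 0.05. Among all tested genes 57.7% were higher, and 2.69% were higher at p under 0.05. The plasminogen activator gene Plat differed by 0.13 ± 0.063 and the urokinase receptor gene Plaur by 0.081 ± 0.086, while Mmp3 and Mmp12 were below the filter. Of 17 fibroblast matrix genes 11 were higher and 1, the smooth muscle actin gene Acta2 (0.34 ± 0.13), had p under 0.05. The median of that list was -0.049, -0.088, 0.40 and 0.33 in J, L, M and AH. Without mice J and L 11 of 17 were higher at p under 0.05, where 629 of 12976 tested genes were. That fit holds 4 libraries and leaves 1 residual degree of freedom. Dcn, a proteoglycan of the meninges, was at 29.1 FPKM in the contralateral block of mouse J and at 2.21 to 8.94 FPKM elsewhere. Of 19 endothelial genes 13 were lower (median -0.038), where 5491 of 12976 tested genes were. The transporter gene Slco1a4 was lower at -0.21 ± 0.080. Lrg1, an acute-phase glycoprotein of venules, was higher at 2.73, 1.72, 3.06 and 3.95 FPKM in the injected and 1.06, 1.75, 1.48 and 2.93 FPKM in the contralateral hemisphere (0.47 ± 0.15).

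Neuronal and synaptic genes differed by small amounts. Over all tested genes 57.7% were higher, 2.69% were higher at p under 0.05 and 1.43% were lower at that level. Of 19 excitatory neuron genes 13 were higher, 2 with p under 0.05, and of 16 interneuron genes 9 were higher, near the background share, 2 with p under 0.05 and 0 without J or without L. Lamp5 (0.41 ± 0.15), Snap25 (0.25 ± 0.10), Gad1 (0.31 ± 0.12) and Npy (0.26 ± 0.092) were those genes, each with its lowest value in the contralateral block of mouse J. Of 36 synapse genes 21 were lower, where 5491 of 12976 tested genes were, with 3 at p under 0.05. After the length correction 3 were higher and 2 lower, without mouse L the median was 0.019 with 1 gene lower, and with the shared spread 0 had p under 0.05. Shank1, a postsynaptic scaffold, measured 86.6, 78.4, 95.8 and 92.5 FPKM in the injected and 128, 94.4, 102 and 106 FPKM in the contralateral hemisphere, lower in all 4 mice (-0.27 ± 0.087). Shank2 (-0.23 ± 0.091) and the glutamate receptor gene Grm5 (-0.18 ± 0.074) were also lower in all 4. Of 20 oligodendrocyte genes 16 were higher in the mean and none had p under 0.05, and without mouse L their median was -0.099. Myelin basic protein, Mbp, measured 528, 600.3, 508 and 531 FPKM in the injected and 453, 192, 869.8 and 558 FPKM in the contralateral hemisphere, up in L and down in M. Of 20 cholesterol synthesis genes none had p under 0.05 (median 0.015). Among 17 tested markers of neighbouring regions, 13 were higher and only Prox1, of dentate granule cells, had p under 0.05 (0.50 ± 0.15).

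The 10 genes with the largest downward difference by the same rule were mostly small RNAs. They were Mir377, Snord14d, Snord37, Snora70, Lypd1, Snora64, Mir1188, Mir3072, AF357359 and Meg3. Poly(A)-selected libraries capture such genes mainly as pieces of longer transcripts, so the values do not measure mature microRNAs. Mir377 rested on 0, 3, 1 and 1 fragments in the injected and 3, 6, 2 and 3 fragments in the contralateral libraries of J, L, M and AH, and Snord37 on 4, 2, 1 and 0 and 4, 4, 4 and 1. These counts are too low to carry a statement about single genes. Lypd1, a membrane protein that binds nicotinic receptors, measured 5.32, 2.67, 4.704 and 4.16 FPKM in the injected and 14.7, 7.83, 5.85 and 4.37 FPKM in the contralateral hemisphere (-0.73 ± 0.23), and -0.16 without J and L.

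The long RNA Meg3 was the best measured of the downward genes. It lies in the imprinted Dlk1-Dio3 region (GRCm39, chromosome 12 from 109506877 to 109538165, plus strand), where long noncoding RNAs and many small RNAs are transcribed from the maternal chromosome. Meg3 measured 54.95, 87.01, 103 and 53.3 FPKM in the injected and 113, 104, 122 and 79.7 FPKM in the contralateral hemisphere of mice J, L, M and AH, lower in all 4 (-0.52 ± 0.14). Mirg (chromosome 12 from 109696198 to 109715898), the host transcript of a microRNA cluster, was at 3.26, 5.02, 5.08 and 3.17 FPKM in the injected and 5.88, 4.93, 5.94 and 4.304 FPKM in the contralateral hemisphere (-0.30 ± 0.12), and Rian at 78.6, 75.8, 86.3 and 57.1 FPKM in the injected and 109, 82.1, 84.99 and 59.8 FPKM in the contralateral hemisphere (-0.16 ± 0.090). Between Dlk1 and Dio3 the table holds 73 genes, of which 7 passed the filter, all 7 were lower and 5 had p under 0.05. Of all 12976 tested genes 5491 were lower, and 1.43% were lower at p under 0.05. Mir377, with the low counts given above, is one of the 5. The region was singled out after its values were seen, its small RNAs lie within the long ones, and the count is a description. In the R33 and R55 mice, Meg3 differed by -0.40 ± 0.20 and -0.42 ± 0.18 in the fit over 13 mice, lower in 3 of 4 and 5 of 5 pairs.

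The other injected mice give a second look at the injection, since each compound was dissolved in the same vehicle. In the fit over 13 mice, 0 genes were called in the 4 R33 pairs (0%, smallest adjusted p = 0.540) and 0 in the 5 R55 pairs (0%, smallest adjusted p = 0.4996). At an unadjusted p under 0.05, 3.57% of genes were higher and 2.72% lower with R33, and 4.36% and 5.16% with R55. Of all 12976 tested genes 7485 were higher after vehicle, 7159 after R33 and 5887 after R55. Of the 19 reactive astrocyte genes, 18 were higher after vehicle, 19 after R33 and 17 after R55, with medians of 0.33, 0.27 and 0.31. In that fit 2, 5 and 7 of them had p under 0.05.

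Single injury genes can be set side by side, vehicle first, then R33 and R55. Serpina3n differed by 0.41, 0.89 and 0.62, Lcn2 by 0.80, 1.06 and 0.85, and Hmox1 by 0.67, 1.13 and 0.76. A single R33 mouse, AD, carried much of the R33 values, with Lcn2 at -0.26, 0.47, 0.13 and 3.89 and Hmox1 at 0.20, 0.25, 0.57 and 3.48 in K, N, O and AD. After R55, Hmox1 was at -0.11, -0.25, 0.39, 1.58 and 2.18 in P, Q, R, AA and AB, so that mean rests on AA and AB. Serpina3n was lower on the injected side in R33 mouse N (-0.11) and R55 mouse Q (-0.62). The labels do not say what tells mice with 1 letter from those with 2. Stat3 was at 0.26 ± 0.094, 0.25 ± 0.094 and 0.31 ± 0.084, higher on the injected side in 4 of 4, 4 of 4 and 4 of 5 pairs. Tnfrsf12a was at 0.40 ± 0.17, 0.57 ± 0.17 and 0.44 ± 0.16, also higher in 4 of 4, 4 of 4 and 4 of 5 pairs. Gfap was at 0.53 ± 0.28, 0.85 ± 0.28 and 0.18 ± 0.25.

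**Figure D4:**
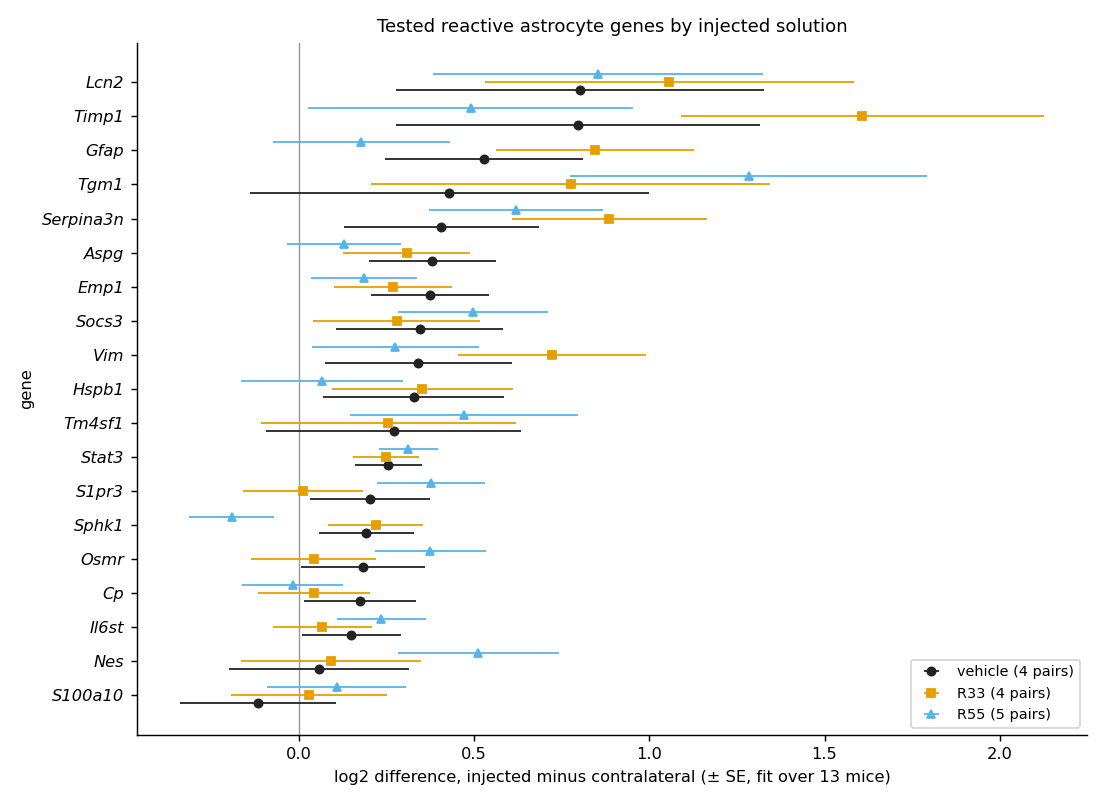
Log2 difference between injected and contralateral hemisphere (± SE from the fit over 13 mice) of the 19 tested reactive astrocyte genes after vehicle (4 pairs), R33 (4 pairs) and R55 (5 pairs), ordered by the vehicle value. Most values lie above 0 with all 3 solutions, from -0.12 for S100a10 to 0.80 for Lcn2 after vehicle.

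The difference between solutions was tested directly in the same fit. For vehicle minus R33, 0 genes were called (0%, smallest adjusted p = 0.9999) and 124 had an unadjusted p under 0.05, 0.493% of genes higher and 0.462% lower. For vehicle minus R55, 0 genes were called (0%, smallest adjusted p = 0.806) and 770 had an unadjusted p under 0.05 (3.48% higher and 2.45% lower). The 770 fell to 324 without mouse L. The split turned to 343 higher and 410 lower after median-of-ratios scaling, and to 231 higher and 352 lower after the length correction. No reactive astrocyte gene had p under 0.05 in either contrast, which does not show that the solutions act alike. For Gfap the difference was -0.32 ± 0.40 against R33 and 0.35 ± 0.38 against R55.

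The genes with the smallest p in these contrasts were chosen by p and are given as values. The injection differences that exceeded those after R33 were led by Gfpt2, an enzyme of hexosamine synthesis (0.36 after vehicle, -0.016 after R33), the matricellular gene Ccn1 (0.25 and -0.24), Met, Cntn6 and Snora61. Those that fell short of R33 were Otx2, a transcription factor that choroid plexus carries (0.10 and 1.42), Gstm2, Scarna2, Vat1l and the cyclin gene Ccnd3. Against R55, Hpdl (0.38 after vehicle, -0.12 after R55), the stress gene Ddit4 (0.14 and -0.30), Fkbp7, Ccdc28b and BC025920 were higher, and the adhesion gene Tenm1 (-0.32 and 0.36), Sesn3 (-0.15 and 0.44), Fam217b, Marchf1 and Fgd4 were lower. Immediate early genes, 16 of 25 lower after vehicle, were lower in 21 of 25 after R33, 10 of them with p under 0.05 (1 was higher at that level), and higher in 17 of 25 after R55 with none at that level. In the direct contrasts no member had p under 0.05 against R33 and 1 against R55. Synapse genes, 15 of 36 higher after vehicle, were higher in 6 after R33 and in 31 after R55. At p under 0.05, 7 of 36 were lower for vehicle minus R55 (2.45% of all tested genes) and 2 were higher for vehicle minus R33 (0.493%). Over all 12976 tested genes 7485 were higher after vehicle, 7159 after R33 and 5887 after R55.

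The study itself reported genes that differed between the injected and contralateral hemispheres after microinjection, using DESeq2. Cdca5, Esyt1, Ifi30 and Mmp12 were listed because it found them both there and between R55 and vehicle. The study singled them out on these same mice, so their direction here is no independent evidence. The paired fit used here, which called no gene, is another test on FPKM with the mouse as a block. Ifi30 is given above. Esyt1, which tethers endoplasmic reticulum to the plasma membrane, measured 5.33, 5.05, 4.55 and 4.76 FPKM in the injected and 3.8001, 3.34, 4.105 and 3.73 FPKM in the contralateral hemisphere (0.32 ± 0.080, and 0.20 without J and L), with every contralateral block below every injected block. Its difference after R33 and R55 was 0.28 and 0.11. Cdca5, a cohesin regulator of dividing cells, rested on 2, 2, 3 and 7 fragments in the injected and 2, 1, 4 and 2 in the contralateral libraries, and Mmp12, a macrophage elastase, on 8, 5, 5 and 5 and 4, 3, 3 and 3. Mmp12 had more fragments on the injected side in all 4 mice, and Cdca5 in mice L and AH. Both genes were below the filter and so were not tested in the paired fit, and counts this low carry no firm statement about a difference.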

How the data were processed

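Cortical blocks of vehicle-injected mice were profiled by stranded mRNA sequencing. The authors used HISAT2 and the GRCm39 genome, the deposited values are FPKM per gene, and the tool that counted fragments is not given in the sources used here. Of the 32 libraries in the table, 27 were used and 5 columns were not, as they match no sample given here. Symbols were respelled with GENCODE on GRCm39 (23898 of 26264 matched). Values were taken as log2(FPKM + 1). Genes with a mean of 1 FPKM or more were tested with limma 3.58.1 in R 4.3.3 with an intensity trend and the mouse as a block, and p-values were adjusted by Benjamini-Hochberg. Pairing comes from the mouse letter, and deviations of the same mouse correlated at 0.397 to 0.649 against -0.502 to 0.162 between mice. Whole fragments were recovered for 100% of genes (tolerance 0.01 fragments), and limma voom on them called 0 genes, with 579 at an unadjusted p under 0.05. The fit was also run on simulated fragments with known changes, and the outcome is not given here.

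Named genes were the 10 a direction with the largest difference at an unadjusted p under 0.05 and one sign in all 4 pairs, any called gene, 5 a direction by p in each comparison with R33 and R55, list members with p under 0.05 or best known as examples, and the 4 study genes. Gene lists and their members were chosen with earlier results of these data known, and the libraries by label alone. Alternatives were the block, pseudocount, filter, scaling, length, count model, trend, spread and each mouse left out. A few genes are not reported here. Columns of the authors' own comparisons were not used.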

Additional observations from a re-analysis of the deposited data

Results flagged for a closer look

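Among 171 groups of 4 values examined, 11 held 1 value far from the other 3, near the 5% that chance gives. Mouse J stood apart in 5 of them. Its injected block had 8.40 FPKM of Rspo1 (12.12 to 13.03 in the others), 4.64 FPKM of Tnfrsf12a (3.29 to 3.44) and 6.86 FPKM of Egr4 (12.3 to 13.4), and its contralateral block had 4.502 FPKM of Hspb1 (2.22 to 2.45) and striatal markers at 53.96 FPKM (38.6 to 39.2). Mouse L stood apart in 5. Its contralateral block had 1.76 FPKM of Ccl12 (3.23 to 3.50 in the others), and its injected block had 3.45 FPKM of Spp1 (10.4 to 11.7), 100.5 FPKM of Atf4 (93.7 to 94.8) and striatal markers at 149.6 FPKM (38.6 to 41.1). Its median difference of reactive astrocyte genes was 0.15 (0.24 to 0.26 in the others). In mouse M the median difference of neuronal injury genes was 0.16 (0.034 to 0.051 in the others).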

How the results depend on the processing

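No alternative called a gene between hemispheres or between solutions. The number at an unadjusted p under 0.05, 535 in the paired fit, was 152 without the mouse as a block, 855 of 20976 genes without a filter, 345 of 8818 at a mean of 5 FPKM, 328 with the spread shared over 13 mice and 341 to 918 with 1 mouse left out, the lowest without L and the highest without J. Of 2 alternatives chosen after seeing the data, voom without a filter gave 1011 and leaving out mice J and L together gave 907, where 1 residual degree of freedom is left. Fewer genes are tested at the higher filter and more without one; the cause of the other changes was not tested. Over 1004 values of the 69 genes named for an unadjusted p under 0.05, examples that did not pass it left aside, none changed sign. The genes were chosen for a small p on these same pairs, and some alternatives, such as the fit without the block, leave the difference itself unchanged. The lack of sign changes was therefore largely set by the choice of genes and is no test of them. Without each mouse in turn, 27 of 69 kept an unadjusted p under 0.05. Of 345 list medians, 20 moved by more than the SD between mice. Without J and L the oligodendrocyte median was -0.34, against 0.27 over 4 mice. With 4 pairs and a median SE of 0.080, small differences are out of reach.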

Other observations

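The spread of the hemisphere difference over all tested genes varied between mice, with an SD of 0.30 on the log2 scale in mouse J, 0.27 in L, 0.20 in M and 0.16 in AH. Without mouse J the smallest adjusted p (limma) was 0.690, and without both J and L it was 0.159. Dlk1 and Dio3, the protein-coding genes at the ends of the imprinted region that holds Meg3, were at 4.11 and 3.91 FPKM in the contralateral block of mouse J, the block with the choroid plexus markers. Both names were chosen after their values were seen.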
